A study of Mus musculus with 686 samples.

Results

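The 100 most abundant ribosomal RNA (rRNA) features of a small RNA atlas of mouse spaceflight were described here across 13 tissues. They are 100 of the 356 rows of the rRNA count table, chosen by their mean CPM (a row's counts scaled to a fixed sum of rRNA counts per library) over all 686 libraries, so their high level is what selected them and is no result. The libraries came from female BALB/cAnNTac mice of 3 arms. These were mice in spaceflight (FL), ground controls in flight habitats (HGC) and ground controls in a vivarium (VGC). HGC mice lived on Earth in flight hardware at the density, temperature, humidity and carbon dioxide of the flight, and VGC mice lived in standard cages. The mice belonged to age groups of 3 (358 libraries) and 8 months (328 libraries). In the live animal return (LAR) series, 114 FL libraries came from mice that spent 39.5 days on the International Space Station and were collected 2 to 4 days after splashdown, beside 113 HGC and 121 VGC libraries. In the terminal (TERM) series, mice were killed 22 to 24 days after launch, on orbit or on Earth, giving 115 FL, 114 HGC and 109 VGC libraries. LAR organs were dissected and snap frozen at once. TERM carcasses were frozen whole and thawed for dissection, except the spleen, which was taken fresh. Time, return to Earth, anaesthesia, freezing and thawing therefore differ together between LAR and TERM and cannot be told apart. Both ages were present in LAR and TERM of 11 tissues, but brain of LAR (12 libraries) and pancreas of TERM (11 libraries) held only mice of 3 months, so age is mixed into LAR vs. TERM there. The tissues include brown (BAT), gonadal (GAT), mesenteric (MAT) and subcutaneous (SCAT) adipose tissue.

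Ribosomes hold 4 kinds of cytosolic rRNA. The 18S, 5.8S and 28S rRNAs are cut from 1 long precursor made by RNA polymerase I. The 5S rRNA is made separately by RNA polymerase III from many gene copies, binds ribosomal proteins outside the ribosome and is then built into the large subunit. In small RNA libraries these RNAs are seen as fragments or as short whole molecules, so the values below are levels of sequenced pieces and not amounts of ribosomes. In bulk tissue, fewer cells of a type and less RNA per cell cannot be told apart.

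By sequence, 97 of the 100 members were nearest to 5S rRNA, 2 to 5.8S (n-R5-8s1 and Gm24601) and 1 to 18S (CT010467.1, a 1849-base transcript at chr17:39846353-39848201 of GRCm38, minus strand, the member with the highest mean). The sequences were compared with 5S, 5.8S and 18S references only, so a match to 28S was not looked for. All 100 were found by transcript name in the GENCODE annotation of GRCm38, and 99 carried the same transcript version. CT010467.1 differed in version, and the authors' files use the later build GRCm39. Of the 97 5S members, 51 lay in 1 tandem cluster on the minus strand of chromosome 8, and the other 49 members were spread over 20 chromosomes. The gene that names the 5S family, Rn5s, is 119 bases long, and 32 members, Rn5s included, had exactly its sequence.

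The comparisons turn on single positions at which copies of the chromosome 8 cluster differ from Rn5s. Positions are counted from 1 at the 5′ end of Rn5s, with the base of Rn5s first. n-R5s130 differs by U62A, n-R5s136 by U33C, n-R5s112 by C44U and n-R5s102 by G89U, A90U and G93C. n-R5s101 and n-R5s114 carry the differences of n-R5s102 with U2C, and n-R5s114 has G1A as well. Each is annotated as a whole transcript of its own.

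In the counts as deposited a read appears to be put on every copy it matches, though the counting rule is not given. All 510 pairs of members with the same sequence had the same count in every library, and no pair with different sequences did. The 100 members thus hold 60 distinct count profiles, and 46 members share 6 of them. The 32 exact copies of Rn5s stood at a mean of 20836 CPM each, which is 1 signal counted 32 times. The 4 members of the n-R5s130 profile stood at 14915 CPM, n-R5s102 at 14588, n-R5s136 at 9248, the 3 members of the n-R5s112 profile at 8042, the 2 of n-R5s101 at 5413 and the 3 of n-R5s114 at 5395 CPM. CT010467.1 had 104528 CPM, Gm24601 885 CPM and n-R5-8s1 477 CPM. Per base of length, which is the scale for comparing different RNAs, Rn5s had 175 CPM, CT010467.1 56.5, Gm24601 6.19 and n-R5-8s1 3.22 CPM per base. At the edge of the selection, n-R5s215 had 182 CPM, Gm23957 161 and Gm25675 157 CPM inside it, and n-R5s25 156, Gm23799 155 and n-R5s167 149 CPM outside it. The order at that edge is therefore not firm, and 99 of the 100 members were kept both when CPM was taken over all classes and when tissue medians were averaged. No member was at 0 in any library. In each library the members held 99.0 to 99.9% of the rRNA counts, with a mean of 99.7%.

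For each of the 56 distinct 5S profiles other than Rn5s, the longest stretch shared exactly with Rn5s was measured. A read that lies within such a stretch matches both copies and may be counted on both, which was checked for identical copies only. The mean level is also what chose the members. The levels by stretch may therefore describe how the counts were assigned, and they are no result. The 21 profiles with stretches of up to 30 bases had a median of 263 CPM, the 17 with 31 to 50 bases 619 CPM, the 9 with 51 to 70 bases 2852 CPM and the 9 with 71 to 118 bases 8042 CPM. The n-R5s130 profile stood above others of its stretch, with 61 shared bases that start at the 5′ end and 14915 CPM. n-R5s1, which lies on chromosome Y, had a mean of 2046 CPM in these female mice and shares a stretch of 54 bases with Rn5s.

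**Figure D1:**
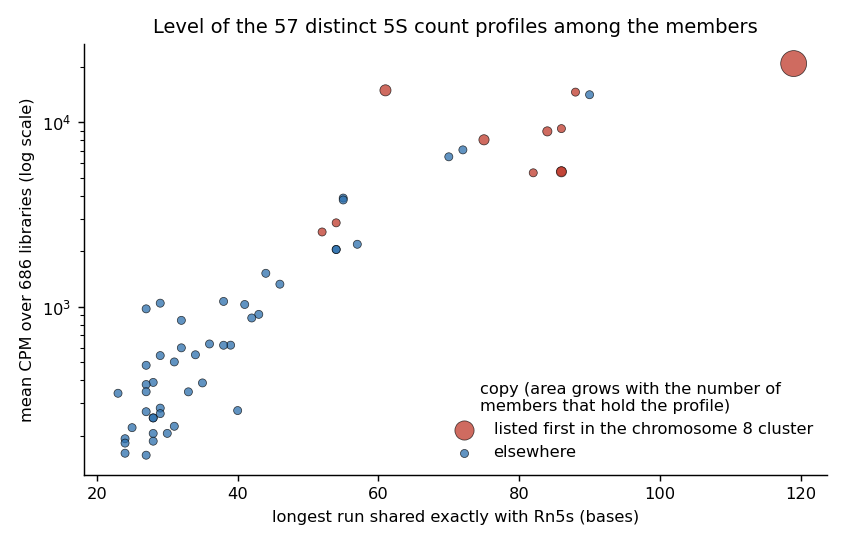
Mean CPM of the rRNA counts over 686 libraries (vertical axis, log scale) against the longest stretch shared exactly with Rn5s (horizontal axis, bases). Each point is 1 of the 57 distinct 5S count profiles, coloured by whether its first member lies in the chromosome 8 cluster, with an area that grows with the number of members. Reads within a shared stretch match both copies and may be counted on both, so the plot may describe the counting. Rn5s itself is at 20836 CPM and 119 bases.

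The rRNA share of a library, the percent of its counts over 8 classes of small RNA that fell on rRNAs, differed widely between tissues. It was highest in pancreas, where the lowest, median and highest of 39 libraries were 2.99, 47.0 and 63.3%. Diaphragm followed with 7.10, 26.9 and 52.4% (n = 59) and heart with 10.2, 20.0 and 38.9% (n = 50). Liver had a median of 16.8%, lung 15.0%, kidney 13.9%, BAT 13.2%, thymus 13.2%, spleen 12.9% and MAT 12.0%. The lowest medians were those of GAT (6.95%), SCAT (6.94%) and brain (5.02%). The ranges of neighbouring tissues in this order overlapped, and the medians from kidney to MAT lay within the spread of any of them. Over all libraries the share was 16.8% ± 11.6 (SD, n = 686). Pooled over the series, rRNAs held 14.4% of all counts, and 8.16% when rows with the same counts in every library were counted once in each class.

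**Figure D2:**
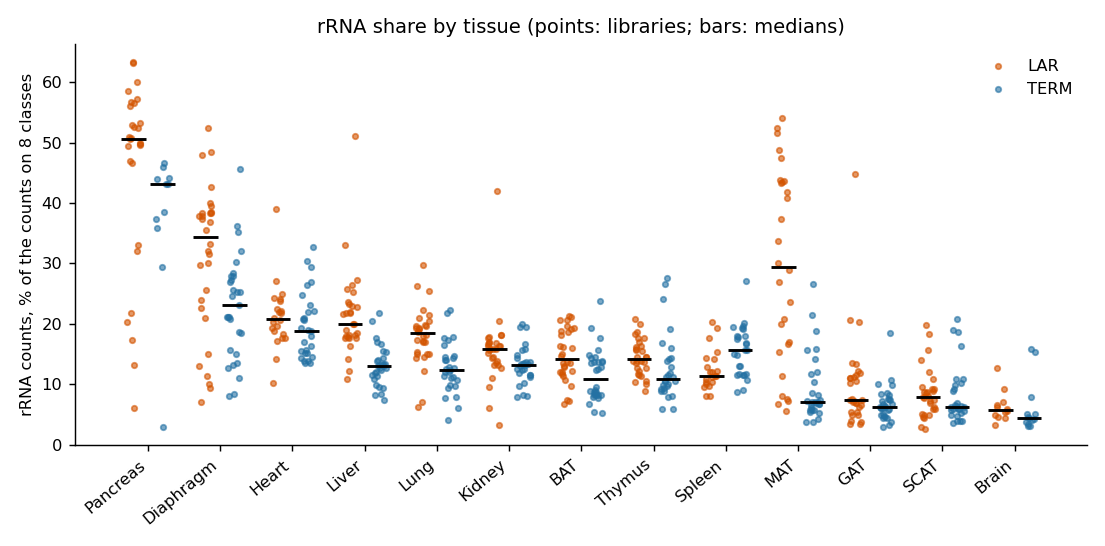
Percent of the counts on 8 small RNA classes that fell on rRNAs (vertical axis) in each of 686 libraries, by tissue, with LAR and TERM side by side and bars at their medians. Pancreas is highest and brain lowest, and MAT separates into a LAR group with a median of 29.5% and a TERM group with a median of 7.06%.

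Sums of counts and identity of the libraries bear on these values. A library held 63.1 M counts on average over the 8 classes (9.15 to 429 M), of which 9.10 M (1.40 to 66.0 M) were on rRNAs. TERM libraries held more counts over the 8 classes (71.5 against 55.1 M) and similar counts on rRNAs (8.70 against 9.48 M). Rows with the same counts in every library raised such sums over counting once, 5.16-fold for tRNAs and 3.82-fold for rRNAs. They are therefore sums of counts and not numbers of reads. Over 730 microRNAs that differ between tissues, 166 of 686 libraries (24.2%) had a profile closer to another tissue than to the one on the label. Pools and plates are those listed for each library in the study's sample sheet. In 11 of 44 pools a profile closer to another tissue was seen in more than 1 in 3 libraries, and these pools hold 168 libraries. The summed level of the microRNAs taken as markers was highest in the tissue of that name for liver, heart, diaphragm, brain, pancreas and lung. Each of the 1 to 4 markers was itself highest there in liver, heart, brain and pancreas, and 2 of 3 were in diaphragm and lung. The 4 adipose tissues were read from 1 list of 3 microRNAs, which tells none of them apart, and its sum was highest in BAT, with GAT at rank 4, SCAT at rank 5 and MAT at rank 8 of the 13 tissues. Thymus and spleen also shared 1 list of 3, whose sum was highest in thymus and at rank 2 in spleen, while 2 of its 3 microRNAs were highest in spleen. The sum of the kidney markers stood at rank 2 in kidney. By profile, 46 of 57 MAT libraries were closer to another tissue.

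The 32 identical copies of Rn5s make up most of the sum to which CPM is scaled, so their CPM is largely set by the scaling. Their medians, from 19589 CPM in brain to 22555 CPM in pancreas, therefore do not show how much Rn5s differs between tissues. CT010467.1, the 18S member, had its highest medians in brain (161274 CPM, 59738 to 931552 CPM over 25 libraries) and liver (135758 CPM), and its lowest in diaphragm (73328 CPM) and lung (73571 CPM). The 5.8S members followed a similar order. Gm24601 had a median of 1878 CPM in brain and 1279 CPM in liver against 531 CPM in diaphragm, and n-R5-8s1 884 CPM in brain and 625 CPM in liver against 361 CPM in diaphragm. The 5S members together held a median of 89.8% of the rRNA counts, from 83.3% in brain to 92.3% in lung. CPM of the rRNA table must sum to a fixed total, so a higher share of 18S or 5.8S comes with a lower share of 5S.

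Within 5S the tissues differed in the counts on single copies. Copies share long stretches, and reads within them may be counted on each. These counts therefore do not measure how much each copy is expressed. n-R5s130, whose difference lies at position 62, was highest in pancreas (median 20602 CPM) and lowest in diaphragm (11517 CPM). n-R5s136, whose difference lies at position 33, ran the other way, with medians of 12818 CPM in diaphragm, 11444 in heart and 3788 in pancreas. n-R5s101 had 7518 CPM in diaphragm and 1885 in pancreas. Among members far from Rn5s, Gm23957 had a median of 375 CPM in diaphragm, 3.17 times its median over tissues, and 7.24 CPM in pancreas. n-R5s88 was at 724 CPM in diaphragm, 551 in heart and 19.7 in pancreas. By the ratio of a tissue's median to the median over tissues, the leading member was Gm24601 in brain (2.55), liver (1.74), kidney (1.35) and BAT (1.34). It was n-R5s88 in heart (1.91) and MAT (1.08), Gm23957 in SCAT (1.56) and GAT (1.13), n-R5s40 in thymus (1.55), n-R5s130 in pancreas (1.38), n-R5s166 in lung (1.38) and n-R5s195 in spleen (1.11). Such tissue values are descriptions and were not tested.

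Ratios of copies that differ at known positions avoid the question of scale, since both counts come from the same library. Outside the named position the paired copies hold the same bases. The ratio n-R5s136 to Rn5s (U33C) was 44.9% ± 14.6 (SD, n = 686), n-R5s112 to Rn5s (C44U) 39.0% ± 11.8, n-R5s130 to Rn5s (U62A) 71.2% ± 10.3, n-R5s102 to Rn5s (G89U, A90U and G93C) 69.7% ± 8.21 and n-R5s101 to n-R5s102 (U2C) 39.4% ± 16.6. In all 686 libraries each of these 5 ratios was under 100%. Reads within a stretch that both copies share may enter both counts, so a ratio is not one of expression. The part of where the reads lie along 5S was not tested. These ratios were chosen after the data had been seen. They share copies and most of their bases, so calls of several ratios are not separate results.

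The ratios ordered the tissues in 2 opposite ways. At positions 2, 33 and 44 pancreas was lowest and diaphragm highest. The U2C ratio had a lowest, median and highest value of 5.51, 9.65 and 42.3% in pancreas and of 8.97, 61.3 and 90.8% in diaphragm, with heart next at a median of 53.8%. Between them lay liver (28.7%), kidney (29.2%), MAT (32.4%), BAT (33.8%), spleen (34.6%), GAT (35.0%), thymus (41.1%), brain (41.8%), SCAT (43.4%) and lung (46.7%), and these neighbours overlapped. The U33C ratio had medians of 16.9% in pancreas, 55.5% in heart and 64.4% in diaphragm, and C44U of 16.4, 47.5 and 54.0%. At position 62 pancreas was highest, with a median of 91.4%, and diaphragm lowest with 58.7%. At positions 89, 90 and 93 pancreas had 87.1%, diaphragm 64.8% and heart 63.8%. In pancreas, then, the copies that hold the first 61 bases of Rn5s stood nearest to it, and those with a difference in the first 44 bases stood far below it.

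**Figure D3:**
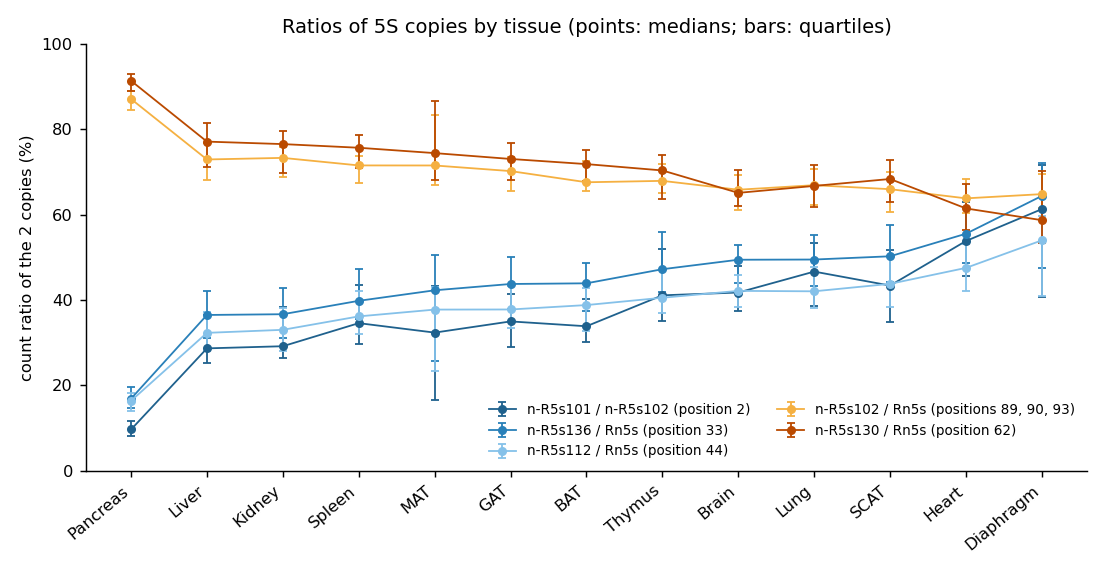
Count ratio of 2 5S copies in percent (vertical axis) by tissue, as medians with quartiles over the libraries of a tissue. Lines only join the points of a ratio. The ratios at positions 2, 33 and 44 rise from pancreas to diaphragm while those at position 62 and at positions 89, 90 and 93 fall.

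FL was compared with HGC to ask what differed with flight when housing was matched. In LAR the rRNA share of GAT was higher in FL, with lowest, median and highest values of 7.05, 11.1 and 20.6% in FL and 3.36, 5.20 and 13.6% in HGC. The groups overlapped, and all 10 FL libraries were above the HGC mean. FL had a mean of 11.7% ± 3.43 (SD, n = 10) and HGC one of 5.99% ± 3.00 (n = 10), and FL was higher by 5.74 points (2-sided exact permutation test, p = 0.000563, adjusted p = 0.00732 over 13 tissues). VGC libraries of GAT had 12.4% ± 12.4 with a median of 7.39%, and FL did not pass against VGC (difference -0.653, adjusted p = 0.934, exact permutation test). The highest VGC library, that of mouse 1, stood at 44.9%, and its microRNA profile was closer to another tissue. The difference without it was not tested. Counts on rRNAs were alike in both arms, 6.40 M ± 2.30 in FL and 5.95 M ± 1.96 in HGC, while the total over the 8 classes was 58.3 M ± 29.8 in FL and 110.8 M ± 41.2 in HGC. The part of this total in the difference between FL and HGC was not tested. With labels permuted within plates the adjusted p in GAT was 0.0451 (permutation test). With identical rows counted once the difference in GAT was 2.48 points and no longer passed (adjusted p = 0.183, exact permutation test).

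In spleen of LAR the rRNA share was lower in FL. The 6 FL libraries had a lowest, median and highest share of 9.53, 10.4 and 11.4% and the 6 HGC libraries of 11.3, 13.2 and 20.4%, so the groups barely overlapped. The difference of the means was -4.41 points (2-sided exact permutation test, p = 0.00649, adjusted p = 0.0422). It did not pass with labels permuted within plates (adjusted p = 0.271) or with identical rows counted once (-1.73 points, adjusted p = 0.225), by the same exact permutation test. The other 11 tissues of LAR did not pass, among them BAT (16.4% in FL and 12.6% in HGC, adjusted p = 0.133), and 3 of 13 tissues had an unadjusted p under 0.05. In TERM no tissue was called and none had an unadjusted p under 0.05 (permutation tests, smallest adjusted p = 0.795). For FL vs. VGC no tissue was called in LAR (1 with an unadjusted p under 0.05, smallest adjusted p = 0.454) or TERM (1, smallest adjusted p = 0.515). For HGC vs. VGC none was called either, in LAR (0 and 0.550) or TERM (1 and 0.216). The difference of the flight effect between LAR and TERM was not called in any of the 13 tissues (permutation tests, smallest adjusted p = 0.102), nor was its difference between ages in the 12 tissues of LAR with both (smallest adjusted p = 0.381).

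The 5 ratios of 5S copies passed in no tissue for any pair of arms. Each of the 6 families of 65 permutation tests gave 0 calls. In LAR an unadjusted p under 0.05 was seen in 5 tests of FL vs. HGC, 10 of FL vs. VGC and 4 of HGC vs. VGC, and the smallest adjusted p was 0.145. In TERM, 0 tests of each pair did so, and the smallest adjusted p was 0.729.

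Single members were compared between arms with edgeR's quasi-likelihood test on the whole rRNA table, with TMM scaling and Benjamini-Hochberg adjustment, called at 0.05. In GAT of LAR, 16 members rose in FL vs. HGC, where 20.4% of the features tested rose, and 1 fell, where 0.617% fell. The member that fell was CT010467.1, the 18S copy (log2 fold change -0.77 ± 0.27 (SE), adjusted p = 0.0402 from edgeR). It had 47598, 74658 and 151929 CPM as lowest, median and highest of 10 FL libraries and 57558, 100228 and 322428 CPM in HGC, so the arms overlapped, and its fold change was 0.36 when counts were scaled to the total of the 8 classes. The highest HGC library, that of mouse 16, stood at 3.22-fold its group median, and without it the fold change was -0.42 and no longer passed (adjusted p = 0.150 from edgeR). The members that rose by the most were 5S copies far from Rn5s. n-R5s152 had 155, 436 and 1072 CPM in FL and 124, 238 and 322 CPM in HGC (log2 fold change 1.04 ± 0.25, adjusted p = 0.00831 from edgeR). n-R5s205 had a median of 418 CPM in FL and 203 CPM in HGC (1.13 ± 0.29), and Gm23764, a 48-base copy, one of 353 against 180 CPM (1.15 ± 0.29). The upper libraries of FL lay above all of HGC and the lower ones within it. These 3 were higher in FL under TMM, column sum, total and DESeq2 scaling. The balance of members that rose and fell in GAT turned with the scaling. Column sums gave 35 up and 1 down, the total of the 8 classes 99 up and 0 down, and DESeq2 9 up and 44 down. With plate as a term 12 rose and 47 fell, without the 11 pools 32 rose and 1 fell, and without the filter on low counts 4 rose and 1 fell. With identical count profiles fitted once 8 profiles rose and 9 fell. In GAT of TERM the medians of n-R5s152 were 224 CPM in FL and 241 CPM in HGC.

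Against VGC, 7 members of GAT rose in FL, where 10.5% of features rose, and 38 fell, where 23.5% fell. The 38 include the 32 identical copies of Rn5s (log2 fold change -0.25 ± 0.08, adjusted p = 0.0176 from edgeR) and hold 4 distinct profiles. With the column sum in place of TMM factors Rn5s stood at -0.04 and with DESeq2 size factors at -0.33. In GAT column sums gave 45 members up and 0 down, the total of the 8 classes 0 up and 0 down, and DESeq2 24 up and 38 down. Without the 11 pools 32 rose and 38 fell. None was called in GAT with identical count profiles fitted once or without the filter on low counts. Both comparisons use the same FL libraries. HGC vs. VGC gave 0 of 4267 tests over features and tissues (0%), with 14 tests of members in LAR and 81 in TERM at an unadjusted p under 0.05. For this pair DESeq2 called 0 members in LAR and 4 in TERM, all lower in HGC. Scaled to the total of the 8 classes 136 tests of members were lower in HGC in LAR and 159 in TERM, with 0 higher in either, and column sums gave 33 lower in TERM. Without the 11 pools 46 were higher and 5 lower in TERM.

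In pancreas of TERM, 12 members rose in FL vs. HGC, where 12.5% of features rose, and 8 rose in FL vs. VGC, where 5.36% rose. Gm23957 was at 6.39, 10.9, 11.4 and 189 CPM in the 4 FL libraries, at 4.89, 5.16, 6.46, 6.88 and 7.84 CPM in the 5 HGC libraries and at 2.95 and 4.90 CPM in the 2 VGC libraries. Gm26197 was at 36.7, 66.9, 78.3 and 1008 CPM in FL against 34.6 to 48.8 CPM in HGC, and n-R5s56 at 50.9, 91.4, 101 and 1232 CPM against 48.7 to 69.0 CPM. In each case 1 FL library, that of mouse 1, was far above the others. Its rRNA share was 2.99% and its microRNA profile was closer to another tissue. Without it, 0 members were called in either comparison. Without HGC mouse 5, 0 were called vs. HGC as well. Column sums, the total of the 8 classes, DESeq2 and identical count profiles fitted once each gave 0 in both comparisons. The fitted log2 fold changes vs. HGC were 1.87 for Gm23957, 1.64 for Gm26197 and 1.48 for n-R5s56 with adjusted p of 0.0146, 0.0146 and 0.0150 from edgeR. The interaction of flight with LAR or TERM gave 15 calls among all features (0.671%) and 0 among the members, with 165 tests of members at an unadjusted p under 0.05, and DESeq2 called 52, all lower. The total of the 8 classes gave 93 higher and 0 lower, and the fit without the 11 pools 10 higher and 39 lower.

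Age was compared as 8 against 3 months over the 3 arms. The rRNA share was not called in any tissue (permutation tests over 12 tissues, smallest adjusted p = 0.608 in LAR with 0 at an unadjusted p under 0.05, and 0.210 in TERM with 2). The ratios were called in 1 tissue of each series. In thymus of LAR, the U33C ratio had a lowest, median and highest value of 30.8, 40.6 and 54.2% at 3 months and of 43.1, 50.7 and 72.1% at 8 months, with overlap. The means were 40.6% ± 7.66 and 52.6% ± 8.30 (SD, n = 15 each), higher at 8 months by 12.0 points (permutation test, adjusted p = 0.00880 over 60 tests). The U2C ratio was 35.4% ± 8.22 at 3 and 49.3% ± 11.3 at 8 months (adjusted p = 0.00990, permutation test), the C44U ratio 35.5% ± 5.94 and 45.1% ± 7.38, and the U62A ratio fell from 74.0% ± 5.42 to 66.3% ± 4.74 (adjusted p = 0.00880 each, permutation tests). In thymus of TERM the U33C ratio was 46.6% ± 16.6 (n = 13) and 55.9% ± 10.8 (n = 15), which did not pass (adjusted p = 0.417, permutation test).

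SCAT of TERM differed with age in the opposite direction. Its U33C ratio was 40.6, 57.2 and 74.5% (lowest, median, highest of 15) at 3 months and 30.2, 47.4 and 57.5% (of 14) at 8 months. The means were 58.9% ± 10.7 and 44.7% ± 8.74 (adjusted p = 0.00800, permutation test). The U2C ratio was 51.9% ± 14.6 and 34.6% ± 9.70 and the U62A ratio 63.2% ± 6.26 and 72.6% ± 5.16 (adjusted p = 0.00800 each, permutation tests), and the C44U ratio 50.0% ± 8.58 and 39.1% ± 7.37 (adjusted p = 0.0126). In SCAT of LAR the U33C means were 53.4% at 3 and 47.3% at 8 months (adjusted p = 0.563, permutation test). Whether thymus and SCAT differ from each other in their age effect was not tested. None of these 8 calls passed without the 11 pools (smallest adjusted p = 0.0672 in LAR and 0.0899 in TERM, permutation tests) or with ages permuted within plates (0.139 and 0.0694), both of which use fewer libraries. Within plates the U33C difference was 12.3 points in thymus of LAR (8 libraries of 8 months and 7 of 3 months) and -14.4 points in SCAT of TERM (10 and 9), against 12.0 and -14.4 points over all libraries. Without the pools it was 9.28 points in thymus (13 and 11) and -8.70 points in SCAT (10 and 13).

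**Figure D4:**
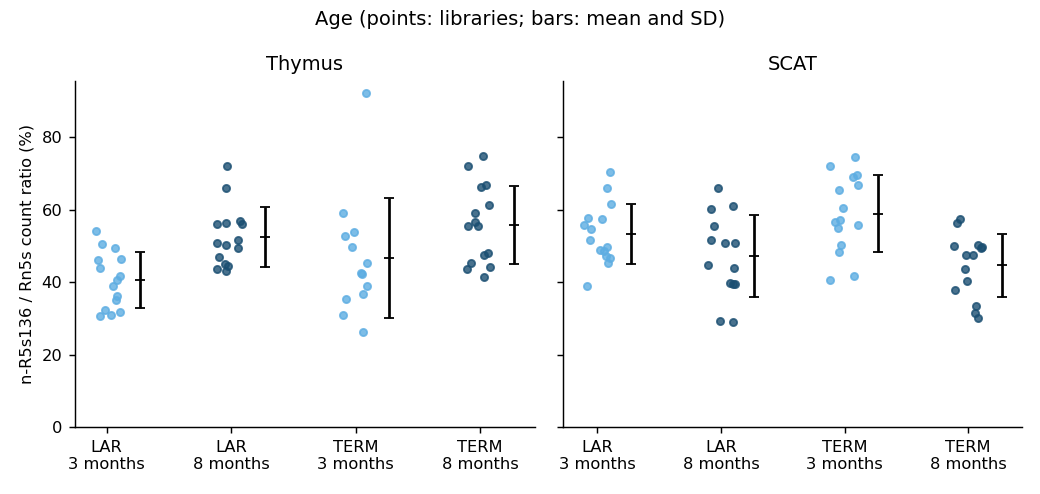
Ratio of n-R5s136 to Rn5s counts in percent (vertical axis) in thymus and SCAT libraries of 3 and 8 months, LAR and TERM, with points for libraries and bars for mean and SD. In thymus of LAR the mean is 40.6% at 3 and 52.6% at 8 months, and in SCAT of TERM 58.9% and 44.7%.

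In the same tissues many members were called with age by edgeR. In thymus of LAR 40 members rose at 8 months, where 47.9% of features rose, and 45 fell, where 29.7% fell. In thymus of TERM 5 rose (7.14%) and 41 fell (24.4%). In SCAT of LAR 3 rose (1.8%) and 36 fell (31.1%), and in SCAT of TERM 43 rose (28.3%) and 39 fell (38.6%). As distinct count profiles, 40 rose and 9 fell in thymus of LAR, and 5 rose and 7 fell in thymus of TERM. In SCAT 3 profiles rose and 36 fell in LAR, and 9 rose and 39 fell in TERM. The balances of members turned with the scaling. In thymus of LAR column sums gave 57 up and 6 down, the total of the 8 classes 57 up and 0 down, and DESeq2 33 up and 58 down. In thymus of TERM no member was called with column sums, 85 rose and 0 fell with the total, and 16 rose and 42 fell with DESeq2. In SCAT of LAR none was called with column sums, with the total, without the 11 pools or without the filter on low counts, 55 rose and 8 fell with DESeq2, and 39 rose and 8 fell with plate as a term. In SCAT of TERM 7 rose and 56 fell with column sums, none was called with the total, and 59 rose and 31 fell with DESeq2. Gm26197 and Gm23957, copies far from Rn5s, kept their sign in each of these 4 cases under the 4 scalings, but not always their call. Both passed under all 4 scalings in thymus of LAR. In SCAT of TERM neither passed with the total, in SCAT of LAR neither passed with column sums, the total or DESeq2, and in thymus of TERM neither passed with column sums and Gm23957 did not with TMM factors. Gm26197 rose with age in thymus of LAR (log2 fold change 0.71 ± 0.16, adjusted p = 0.000337 from edgeR) and TERM (0.48 ± 0.19, adjusted p = 0.0483) and fell in SCAT of LAR (-0.43 ± 0.14, adjusted p = 0.0411) and TERM (-0.72 ± 0.17, adjusted p = 0.000416). In thymus of TERM 0 members rose and 39 fell with plate as a term, and 0 profiles rose and 2 fell with identical count profiles fitted once, so the call of Gm26197 was lost there in both. In SCAT of LAR 2 profiles rose and 0 fell with identical count profiles fitted once, so the falls of Gm26197 and Gm23957 were not called there. Gm23957 rose in thymus of LAR (0.82) and fell in SCAT of LAR (-0.44) and TERM (-0.76). The change of Rn5s depended on the scaling. In thymus of LAR it was -0.44 with TMM factors, -0.07 with the column sum and 0.11 with the total of the 8 classes, and in SCAT of TERM it was 0.48, 0.06 and 0.56. Column sums moved the median of all features by 0.37 in thymus of LAR and by -0.42 in SCAT of TERM (log2). Over all tissues TMM factors gave 43 members up and 81 down with age in LAR and 48 up and 80 down in TERM. The total of the 8 classes gave 57 up and 87 down in LAR and 124 up and 0 down in TERM. These included tissues without a call under TMM factors, with all 87 in GAT and 39 of the 124 in brain. DESeq2 likewise gave 6 up and 41 down in MAT of TERM.

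LAR was compared with TERM within arms. The rRNA share was called in 7 of 13 tissues. In MAT it had a lowest, median and highest value of 5.54, 29.5 and 54.1% in 28 LAR libraries and of 3.74, 7.06 and 26.6% in 29 TERM libraries. The means were 29.6% ± 16.2 and 9.37% ± 5.60, and LAR was higher by 18.5 points in FL, 21.3 in HGC and 21.1 in VGC (20.3 over the arms, permutation test, p = 1e-05, the smallest that 100000 resamples give, adjusted p = 6.5e-05). Liver had 21.5% ± 7.34 in LAR and 13.1% ± 3.38 in TERM (n = 29 each), lung 18.0% ± 4.83 and 12.8% ± 4.21 (adjusted p = 0.000477, permutation test). Diaphragm (30.9 and 22.8%), BAT (14.8 and 11.5%) and GAT (10.0 and 6.81%) were also higher in LAR, with adjusted p of 0.0170, 0.0170 and 0.0308 (permutation tests). Spleen, the 1 organ taken fresh in TERM, was lower in LAR, with 12.4% ± 3.37 against 15.5% ± 4.21 (difference -3.05 points, adjusted p = 0.0190, permutation test). In BAT and GAT the difference within HGC was negative (-0.807 and -0.752 points). With identical rows counted once 3 tissues were called, MAT (7.85 points), liver (2.52) and spleen (-1.68), and BAT stood at -0.163. Within plates MAT, liver and lung were called.

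MAT was also the 1 tissue in which the ratios of 5S copies were called, all 5 of them, out of 65 tests. The 5 ratios share copies and are not separate results. The U33C ratio had a lowest, median and highest value of 9.73, 25.9 and 56.1% in LAR and 25.1, 49.6 and 82.0% in TERM. The means were 28.9% ± 13.5 (n = 28) and 49.6% ± 12.0 (n = 29). The U2C ratio was 21.0% ± 12.8 and 41.6% ± 14.1 and the C44U ratio 25.8% ± 10.9 and 42.6% ± 10.1. At position 62 LAR was higher, with 83.4% ± 9.35 against 69.7% ± 7.32, as at positions 89, 90 and 93, with 80.0% ± 8.78 against 68.3% ± 7.13. Each had an adjusted p of 0.00013 (permutation tests), and all 5 were called within plates as well (adjusted p = 0.00026) and without the 11 pools. Without those pools the U2C ratio of spleen was called too, with 31.6% ± 6.35 in LAR and 40.3% ± 10.9 in TERM (n = 17 each, adjusted p = 0.0275, permutation test).

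The values of MAT in LAR lay towards those of pancreas, and pancreas microRNAs moved with them. The profile of 24 of 28 MAT libraries of LAR was closer to another tissue, for 19 of them to pancreas, against 22 of 29 in TERM, 2 of them to pancreas. The summed level of 4 pancreas microRNAs was 125, 46520 and 137958 CPM of the microRNA counts (lowest, median, highest) in MAT of LAR and 58.9, 541 and 29290 CPM in TERM. In pancreas itself the median was 105750 CPM. The 3 adipose microRNAs had medians of 30155 CPM in LAR and 30934 CPM in TERM. Over the 28 LAR libraries of MAT the rRNA share had a Spearman correlation of 0.81 with the pancreas microRNAs and the U33C ratio one of -0.70. Over the 29 TERM libraries these were 0.16 and -0.25. These are descriptions, and the part of pancreas RNA in the differences was not tested.

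**Figure D5:**
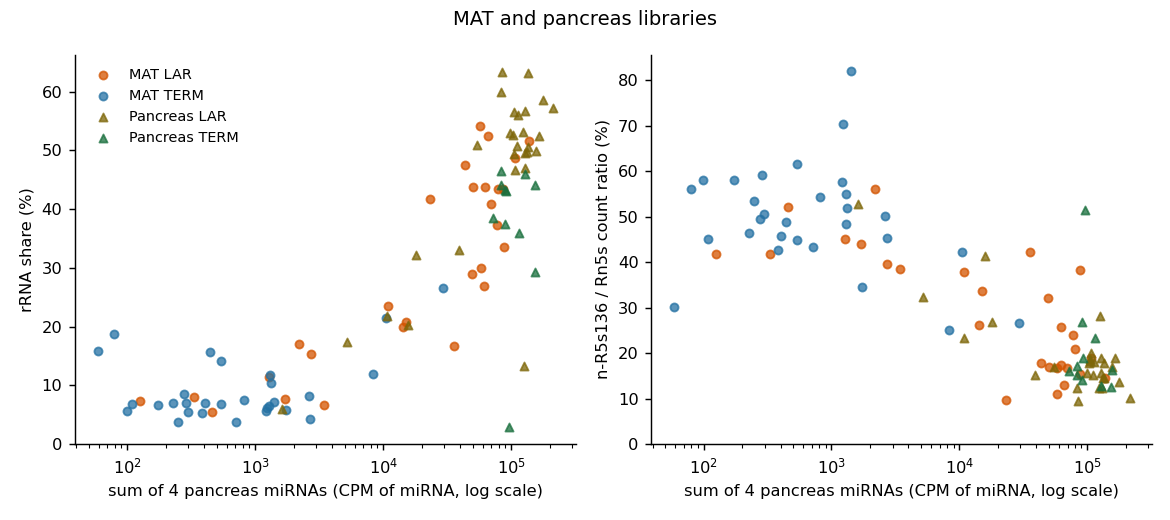
rRNA share (left, percent) and n-R5s136 to Rn5s ratio (right, percent) against the summed CPM of 4 pancreas microRNAs (horizontal axis, log scale) in MAT and pancreas libraries of LAR and TERM. MAT libraries of LAR run from the low end to the region of the pancreas libraries, and those of TERM stay at or below 29290 CPM.

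By edgeR, 45 members rose in MAT of LAR against TERM, where 30.1% of features rose, and 39 fell, where 53.8% fell, and 49 of these 84 were beyond a log2 fold change of 1. The 45 hold 11 distinct profiles. Column sums gave 40 up and 59 down in MAT, the total of the 8 classes 62 up and 0 down, and DESeq2 62 up and 37 down. The 5.8S members rose, Gm24601 by 1.79 ± 0.23 (lowest, median and highest of 425, 1005 and 1649 CPM in LAR and 251, 578 and 1207 CPM in TERM) and n-R5-8s1 by 1.47 ± 0.21, as did n-R5s130 (1.34 ± 0.19), with adjusted p of 2.45e-08 each from edgeR. These 3 were higher in LAR under each scaling. Rn5s rose by 1.05 ± 0.15 with TMM factors but by 0.09 with the column sum, and its identical copies n-R5s108 and n-R5s121 share those values. n-R5s136 was at 5698 CPM (median) in LAR and 10116 CPM in TERM, and its fold change went from 0.04 with TMM factors to -0.71 with the column sum. CT010467.1 was at 0.90 and -0.03. Gm26197, with medians of 417 and 1397 CPM, fell by 1.05 on the log2 scale and was lower in LAR under each scaling. In liver 8 members fell, where 5.56% of features fell, among them n-R5s136 (-0.19 ± 0.06, adjusted p = 0.0253 from edgeR), which was at 0.48 when scaled to the total of the 8 classes. In liver the total of the 8 classes gave 94 members up and 0 down, column sums and no filter on low counts 0 of either, and the fit without the 11 pools 19 up and 42 down. In the other 11 tissues the first fit, with TMM factors over all libraries, called no member. Other scalings called members in some of them. So did plate as a term (36 up and 5 down in heart) and no filter on low counts (39 up and 7 down in spleen). With identical count profiles fitted once, 3 profiles rose in diaphragm. Without the 11 pools 40 members rose and 23 fell in spleen.

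Other RNAs of rRNA maturation were read from a list of 8 names, of snoRNAs and of the RNase MRP RNA. The list was drawn up for the cutting of the precursor, and whether each of them acts in it was not checked here. Of the snoRNAs, 9 rows were found, from U8 (Snord118), U13 (Snord13), U14 (4 Snord14 copies), U17 (Snora73a and Snora73b) and U22 (Snord22), and none under Snord3 or Snora63. None was called between arms (0 of 702 edgeR tests, against 6.5% of all snoRNA tests, with 37 at an unadjusted p under 0.05). Between LAR and TERM 11 of 117 tests rose, where 5.33% of snoRNA tests rose, and 6 fell, where 10.1% fell. Of these 17, 8 were in pancreas (28 LAR and 11 TERM libraries), where 35.8% of all snoRNAs tested rose and 28.6% fell. There Snora73a fell by 2.46 ± 0.31 (SE) and Snora73b by 1.97 ± 0.28 on the log2 scale, and Snord13 (1.59 ± 0.43), Snord14d (1.42 ± 0.38), Snord14c (1.17 ± 0.38), Snord14e (1.11 ± 0.36), Snord118 (1.03 ± 0.37) and Snord22 (0.89 ± 0.34) rose. Pancreas of LAR held 13 libraries of 8 months and that of TERM none. In a fit chosen after seeing the data, over the libraries of 3 months alone (15 LAR and 11 TERM) Snora73a (-2.95), Snora73b (-2.48) and Snord13 (1.12) were called again and the other 5 were not, while Snord14a was called at -0.87 (edgeR, where 89 of 715 snoRNAs rose and 236 fell). Snora73a also fell in MAT (-1.01 ± 0.21, adjusted p = 0.000356 from edgeR), where 16% of snoRNAs fell. Rmrp, the RNA of RNase MRP, rose in LAR in brain (1.04), liver (0.55) and MAT (0.77), where 14.4, 18.3 and 18.5% of the lncRNA features tested rose. Brain of TERM held 5 libraries of 8 months and that of LAR none, and over 3 months alone (12 LAR and 8 TERM libraries) Rmrp stood at 1.15 ± 0.40 (adjusted p = 0.0295 from edgeR). It also rose in FL vs. HGC of LAR in GAT (0.86 ± 0.26, adjusted p = 0.0368 from edgeR), the 1 call of 78 between arms, where 1.55% of lncRNA features rose.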

How the data were processed

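Small RNA libraries were sequenced and quantified by the authors against GRCm39, per the labels. The deposited rRNA, snoRNA, lncRNA, tRNA, snRNA, scaRNA and piRNA tables hold raw read counts per feature, not normalized. The deposited microRNA table holds estimated counts made by the authors with miRMaster, some with a fraction, used here only for totals and tissue profiles. Blank cells were read as 0. The aligner and mismatch settings for rRNAs are not given in the sources used here. Identical copies have identical counts, so 1 read seems to be counted on each of them. The rRNA counts were 3.82-fold those with identical rows counted once. Within a tissue the libraries came from separate mice. Pools and plates are as numbered in the sample sheet of the study. A column of the tables was used for each of the 686 libraries, and circular RNA counts were not used.

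Levels were CPM of the rRNA column sum. Members, gene lists, ratios and tests were chosen with earlier results of these data known. Features were fitted per tissue and series with edgeR 4.0.16 (R 4.3.3; quasi-likelihood, TMM, filterByExpr, Benjamini-Hochberg, adjusted p under 0.05), with ± giving its SE, and DESeq2 1.42.0 as an alternative. Shares and ratios were compared by 2-sided permutation tests, exact up to 200000 splits and otherwise with 100000 resamples, adjusted over tissues or over tissues and ratios. LAR vs. TERM permuted labels within arms, and age likewise. Named members were the 10 with the highest mean and the highest of each kind by name, per tissue the 3 with the smallest adjusted p past a log2 fold change of 1, the leading member of each tissue, and ranks 98 to 103. The other 5S copies named, n-R5s101, n-R5s102, n-R5s112, n-R5s114, n-R5s136 and n-R5s1, were chosen after their values were seen. Snora64, first listed among the RNAs of precursor cutting, guides pseudouridylation and was left out of that list. Transcripts were compared by sequence with GENCODE on GRCm38, no coordinate was converted, and the 5S sequences are not reported here. The scripts were tested on simulated data.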

Additional observations from a re-analysis of the deposited data

Results flagged for a closer look

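In 47 of 231 tests, the highest or the lowest library of a group stood apart from the others by Dixon's test at the 95% level. The test sets the gap to the nearest library against the range of the group. It was run on the rRNA share, CT010467.1 and Rn5s in each of 77 groups of 4 to 10 libraries. With normal values chance alone gives this in about 1 in 20 tests. The tests are not independent, since the same libraries enter all of them and CT010467.1 and Rn5s share 1 fixed sum. There were 18 of 77 groups for the rRNA share, 14 of 77 for CT010467.1 and 15 of 77 for Rn5s. The libraries are given apart by whether their microRNA profile was closer to the tissue on the label or to another, and the part of this in the values was not tested.

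With the profile of the labelled tissue, the rRNA share was highest at 15.8% (FL mouse 17, TERM) and 15.3% (VGC mouse 8, TERM) in brain, 20.6% (FL mouse 1, LAR) in GAT, 32.7% (VGC mouse 11, TERM) in heart, 27.1% (HGC mouse 1, TERM) in spleen. Closer to another tissue, the rRNA share was highest at 18.5% (FL mouse 11, TERM), 13.6% (HGC mouse 14, LAR) and 44.9% (VGC mouse 1, LAR) in GAT, 38.9% (FL mouse 13, LAR) in heart, 42.0% (FL mouse 3, LAR) and 19.4% (VGC mouse 16, TERM) in kidney, 51.1% (FL mouse 4, LAR) in liver. Further values were 29.7% (FL mouse 14, LAR) in lung, 26.6% (FL mouse 2, TERM) in MAT, 20.8% (FL mouse 14, TERM), 18.3% (HGC mouse 11, LAR) and 14.1% (VGC mouse 14, LAR) in SCAT. It was lowest, closer to another tissue, at 2.99% (FL mouse 1, TERM) in pancreas.

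With the profile of the labelled tissue, the CT010467.1 level was highest at 292750 CPM (HGC mouse 16, LAR) in BAT, 931552 CPM (VGC mouse 8, TERM) in brain, 322428 CPM (HGC mouse 16, LAR) and 176874 CPM (HGC mouse 3, TERM) in GAT, 519207 CPM (FL mouse 11, LAR) in liver. Further values were 269187 CPM (HGC mouse 16, LAR) in MAT, 324553 CPM (HGC mouse 16, LAR) in thymus. Closer to another tissue, the CT010467.1 level was highest at 181790 CPM (FL mouse 5, TERM) in diaphragm, 151929 CPM (FL mouse 4, LAR) in GAT, 225758 CPM (VGC mouse 4, LAR) in kidney, 217215 CPM (HGC mouse 16, LAR) and 313153 CPM (VGC mouse 12, LAR) in SCAT. Further values were 145351 CPM (VGC mouse 13, LAR) in thymus. It was lowest, closer to another tissue, at 68926 CPM (VGC mouse 11, TERM) in kidney.

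With the profile of the labelled tissue, the Rn5s level was highest at 21498 CPM (FL mouse 17, TERM) in brain. It was lowest, with the labelled profile, at 16524 CPM (HGC mouse 16, LAR) in BAT, 1478 CPM (VGC mouse 8, TERM) in brain, 19133 CPM (HGC mouse 3, TERM) in GAT, 11172 CPM (FL mouse 11, LAR) in liver. Further values were 17411 CPM (HGC mouse 16, LAR) in MAT, 18714 CPM (HGC mouse 1, TERM) in spleen, 18006 CPM (FL mouse 1, TERM) and 14234 CPM (HGC mouse 16, LAR) in thymus. It was lowest, closer to another tissue, at 19757 CPM (FL mouse 3, LAR) and 18944 CPM (VGC mouse 5, TERM) in kidney, 19529 CPM (FL mouse 14, LAR) and 18643 CPM (FL mouse 14, TERM) in lung, 18199 CPM (HGC mouse 16, LAR) and 15749 CPM (VGC mouse 12, LAR) in SCAT.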

How the results depend on the processing

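Every alternative below keeps the rest of the analysis as it was, and the cause of a change was not tested unless said. Counting identical rows once lowered the number of tissues called for the rRNA share from 2 to 0 in FL vs. HGC of LAR and from 7 to 3 in LAR vs. TERM, and the difference in BAT went from 3.28 to -0.163 points. Permuting within plates gave 1 and 3 tissues, and the replicate block by mouse number gave 0 in FL vs. HGC of LAR, with adjusted p of 0.0762 in GAT and 0.271 in spleen (permutation tests) at differences of 5.74 and -4.41 points. The numbers were not taken to pair the samples, which are different mice. Over the members, 51.8% of 653 pairs of libraries with the same number had a correlation of deviations over 0.1, among them 6 of 10 pairs of GAT and 2 of 6 of spleen for FL vs. HGC of LAR. Every pair was over 0.1 in 3 of 78 comparisons, among them FL vs. HGC of LAR in heart (6 of 6 pairs). Over all tissues the deviations of the rRNA share correlated at 0.108 to 0.184 between the arms of LAR and at -0.0627 to 0.0979 between those of TERM. With the block the 12 and 8 calls in pancreas of TERM went to 0, and other members were called, 38 lower in spleen in FL vs. HGC and 23 in SCAT in FL vs. VGC (2 higher and 21 lower). In GAT of LAR it gave 16 members higher and 0 lower vs. HGC, so CT010467.1 was not called (-0.74, adjusted p = 0.0813 from edgeR). The counts of members called follow in the order of LAR FL vs. HGC (17), FL vs. VGC (45), HGC vs. VGC (0) and age (124), then TERM FL vs. HGC (12), FL vs. VGC (8), HGC vs. VGC (0) and age (128), then LAR vs. TERM (92) and the interaction (0), wherever they moved by over 1.5 times. Column sums gave 36, 138 and, for age, 63 in LAR, 0, 37, 33 and 63 in TERM, and 216 for LAR vs. TERM. The total of the 8 classes gave 209, 0 and 136 for the arms of LAR, 0, 99 and 159 for those of TERM, 533 for LAR vs. TERM and 93 for the interaction. DESeq2 gave 53 in FL vs. HGC of LAR, 0, 0 and 4 for the arms of TERM, 195 for age in TERM, 211 for LAR vs. TERM and 52 for the interaction. Without the filter on low counts there were 5, 1, 1 and 78 in LAR and 1 in HGC vs. VGC of TERM. Without the 11 pools there were 33, 110 and, for age, 72 in LAR, 51 in HGC vs. VGC of TERM, 212 for LAR vs. TERM and 49 for the interaction. Plate as a term gave 59 in FL vs. HGC of LAR, 0 (HGC as control) and 75 (VGC) for FL of TERM, 142 for LAR vs. TERM and 6 for the interaction. The Wilcoxon rank sum test gave 8 members in LAR and 0 in TERM with HGC as the control, and 0 in each with VGC. Fitting identical count profiles once changed the number of distinct profiles called from 11 to 3 in FL vs. VGC of LAR, from 88 to 43 with age in LAR, from 12 to 0 in FL vs. HGC of TERM, from 8 to 0 in FL vs. VGC of TERM and from 0 to 1 in the interaction. Ratio tests called with age went from 4 to 0 in LAR and in TERM, both within plates and without the pools, on fewer libraries. The U2C difference in thymus of LAR was 13.8 points over all libraries, 12.5 within plates and 10.8 without the pools, and the U62A difference in SCAT of TERM 9.48, 9.48 and 7.46 points. Without the pools 6 ratio tests were called for LAR vs. TERM in place of 5. In GAT of LAR, CT010467.1 stood at 0.36 with the total of the 8 classes and, by a fit chosen after seeing the data, at -0.42 without HGC mouse 16, where 20 members were called in FL vs. HGC in place of 17. Leaving out 1 library at a time, brain gave 0 to 2 members in FL vs. VGC of LAR (2 without VGC mouse 17), 0 to 70 in FL vs. VGC of TERM and 0 to 65 in HGC vs. VGC of TERM (70 and 65 without VGC mouse 7). Pancreas of TERM gave 0 to 18 in FL vs. HGC, with 0 without FL mouse 1 or HGC mouse 5, and 0 to 9 in FL vs. VGC. Where this left 1 library in an arm, it was assumed to vary like the others. Of the other values recomputed, 170 that answer a comparison and 249 of single members, tissues or profile counts kept their result. A further 45 no longer passed. Differences and fold changes kept their side of the threshold, and their direction where they passed. Counts moved by no more than 1.5 times and were compared by size alone, whatever rose or fell. With age in TERM, 48 members up and 80 down became 124 up and 0 down with the total of the 8 classes, which was taken as kept. The alternative with circular RNAs as a further class was not run. Libraries held at least 1.40 M rRNA counts, and an arm of a tissue 2 to 10 libraries. How far either limits the calls was not tested.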

Other observations

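HGC mouse 16 of LAR had the highest CT010467.1 level of its group in 9 of its 11 tissues, a mouse singled out after the values were seen. Its level over the group median was 3.51-fold in thymus (324553 CPM), 3.22-fold in GAT (322428 CPM), 2.65-fold in SCAT, 2.55-fold in BAT and 2.42-fold in MAT. It was 1.64-fold in lung, 1.54-fold in kidney, 1.42-fold in heart and 1.19-fold in spleen. Diaphragm (1.31-fold) and pancreas (1.26-fold) were not the highest of their groups. These 11 libraries lay in 8 pools on 5 plates. The mouse next in this count was highest in 4 tissues.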
